A study of Mus musculus with 3 samples.

Results

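Of 697 naive CD4 T cells sequenced one by one, 93 had at least 1 transcript of Myc, 13.3% of all cells (95% interval 10.9 to 16.1). They were chosen by their Myc value in the deposited count table, which had to be above 0, so Myc itself is a description here and entered no test. These cells were set against cells with a value of 0 from the same plate with the same total of transcripts, with 2 such cells for each, 186 in all. At the depth of these cells a value of 0 means that no Myc transcript was caught, and most cells with Myc were detected by a single molecule. The cells at 0 can therefore still hold Myc RNA.

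Myc is a transcription factor that binds DNA as a pair with its partner Max, above all at the E-box CACGTG. It raises the expression of genes for ribosomes, nucleotide synthesis, amino acid uptake and glycolysis, and the Mxd, Mnt and Mga proteins compete with it for Max. In T cells Myc is induced by T cell receptor (TCR) signals and drives the growth that precedes division, while resting naive cells hold little of it. The gene lies at chr15:61985391-61990374 on the + strand (GRCm38, GENCODE M21). CD5 is a surface protein that dampens TCR signals, and its level on a naive cell follows the strength of the tonic signals the cell receives from self-ligands.

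The cells came from spleen and lymph node of C57BL/6 mice of 8 to 12 weeks, males and females pooled, and were freshly sorted with no other treatment. The sort took live single cells with TCRb, CD4, CD62L and CD5 and without CD8, CD25 and CD44, over the whole range of CD5. The CD5 fluorescence of each cell was recorded. The 3 samples are plates of 384 wells, with 172, 201 and 324 cells in plates 1, 2 and 3, and every comparison was made within plates. The labels do not say whether the plates stem from different mice, so the spread between plates, on which the p-values rest, may be technical.

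Without Myc and the spike-ins, totals ran from 716.3 to 13486.0 unique molecular identifiers (UMIs, here meaning estimated transcripts) per cell. The plates share well barcodes, with 40 wells present in 3 plates and 245 in 2, since each plate was filled from the same set of primers. Both groups were checked against markers of the sorted type and of other cells. Cd4 was detected in 97.8% of them and in 95.7% of matched cells, and Cd3e in 78.5% and 82.3%. Foxp3, which marks regulatory T cells, had a UMI in 6 of 93 cells with Myc and in 15 of 186 matched cells. Any of 5 B cell genes was found in 10.8% against 6.45%, and Cd8a or Cd8b1 in 4.30% against 5.91%. Any memory T cell gene was found in 53.8% against 56.5%, and any myeloid gene of Cst3, Ctss and Itgam in 58.1% against 58.6%. Either of the NK cell genes Klrd1 and Nkg7 was found in 11.8% against 10.2%, but in 18.2% against 4.55% in plate 1, with Nkg7 at 0 in the cells with Myc. The summed level of the B cell genes was at most 0.0063% of UMIs in any group, and the part of the UMIs of other cell types in the results was not tested.

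Myc was found at a like frequency in the 3 plates. It was detected in 22 of 172 cells of plate 1 (12.8%, exact binomial interval 8.19 to 18.7), in 35 of 201 of plate 2 (17.4%, 12.4 to 23.4) and in 36 of 324 of plate 3 (11.1%, 7.9 to 15.1). These intervals overlap and cover counting error only. In all, 57 of the 93 cells had 1 Myc UMI, 17 had 2 and 19 had 3 or more, with a highest value of 9. The sum over all cells was 0.537, 0.521 and 0.556 Myc UMIs per 10000 UMIs in plates 1, 2 and 3, so the level hardly differed between plates even where the share of cells did. Within the 93 cells Myc had a median of 2.501 UMIs per 10000, from 0.759 to 25.5. The value just inside the rule is 1 UMI and the value just outside it is 0.

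Cells with Myc were deeper than the rest. Their median total was 5240 UMIs against 3543 for cells at 0 in plate 1, 7606 against 5272 in plate 2 and 4681 against 3817 in plate 3. The mean log2 total was higher by 0.51, 0.33 and 0.22, on average by 0.35 ± 0.15 (SD, n = 3 plates). It was higher in 3 of 3 plates, and the exact sign-flip permutation test over plates, two-sided here and throughout, gave p = 0.25, the smallest that 3 plates allow. When each plate's cells were cut into 4 bins of equal size by total UMIs, Myc was detected in 8.57% of the shallowest bin, then in 10.9%, 13.2% and 20.7%. Per 10000 UMIs, however, Myc was at 0.855 in the shallowest bin and at 0.523, 0.485 and 0.515 in the others. Detection thus went up with depth while the level per UMI did not.

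**Figure D1:**
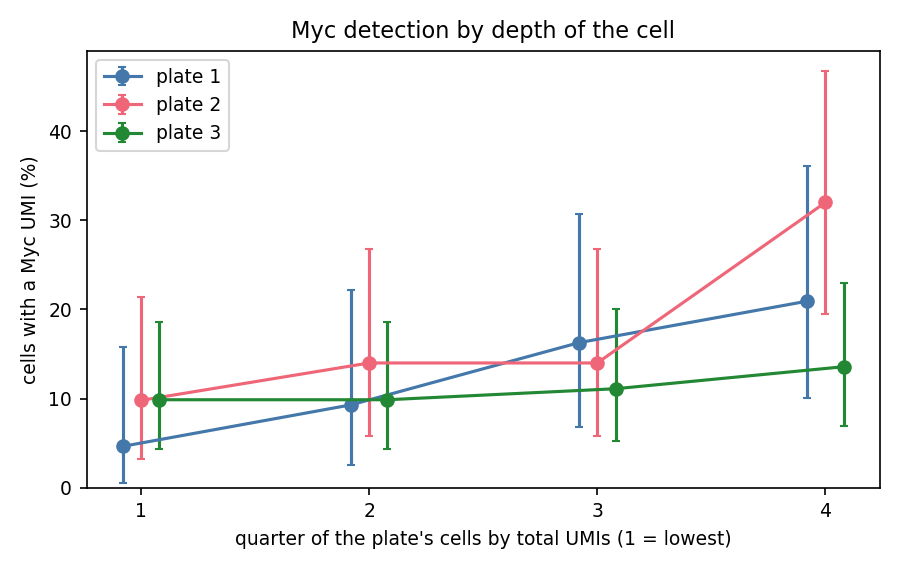
Percentage of cells with a Myc UMI (y axis) in 4 bins of each plate's cells by total UMIs (x axis), with exact 95% binomial intervals for counting error. In plates 1, 2 and 3 the deepest bin stands at 20.9%, 32.0% and 13.6% and the shallowest at 4.65%, 9.80% and 9.88%, so the slope is steepest in plate 2 and shallow in plate 3.

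Matching removed this difference in depth. The matched cells had median totals of 5215, 7228 and 4668 UMIs in plates 1, 2 and 3. At that depth cells with Myc had about as many UMIs per spike-in UMI, a measure of the RNA caught per cell, as matched cells. Matching makes the total UMIs in this ratio nearly equal, so it cannot show whether cells with Myc hold more RNA. The ratio was 5.10, 6.30 and 3.68 in cells with Myc of plates 1, 2 and 3, and 5.43, 6.32 and 3.57 in matched cells. The mean log2 ratio was -0.02 ± 0.07 (SD, n = 3 plates; exact permutation p = 0.75), and it was lower in plates 1 and 2 and higher in plate 3. Without matching it was 0.24 ± 0.13 (SD, n = 3 plates, exact permutation p = 0.25), above 0 in 3 of 3 plates. The number of genes detected per cell was also alike, at 1502, 1641 and 1483 on average in cells with Myc and 1528, 1590 and 1473 in matched cells. The mean difference was 11.9 ± 38.9 genes (SD, n = 3 plates; exact permutation p = 0.75), less than its spread between plates. Without matching it was 217 ± 79.9 genes, above 0 in 3 of 3 plates.

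CD5 fluorescence was somewhat higher in cells with Myc in each plate, by an amount that varied between plates. In plate 1 the cells with Myc ran from 9768 to 94200 cytometer units with a median of 45489.5, and matched cells from 8388 to 175890 with a median of 39481. In plate 2 they ran from 11203 to 112403 with a median of 52488, and matched cells from 5152 to 110704 with a median of 39841.5. In plate 3 they ran from 10541 to 124668 with a median of 49746.5, and matched cells from 1120 to 137432 with a median of 43167.5. The groups overlapped in all 3 plates, with the highest matched cells of plates 1 and 3 above every cell with Myc and the lowest matched cells below them in each plate. The difference in mean log2 CD5 was 0.06, 0.55 and 0.29 in plates 1, 2 and 3. Its mean was 0.30 ± 0.25 (SD, n = 3 plates), or 1.23-fold, with an exact permutation p = 0.25, which is the smallest 3 plates allow, so the difference cannot pass a threshold of 0.05 in this design.

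**Figure D2:**
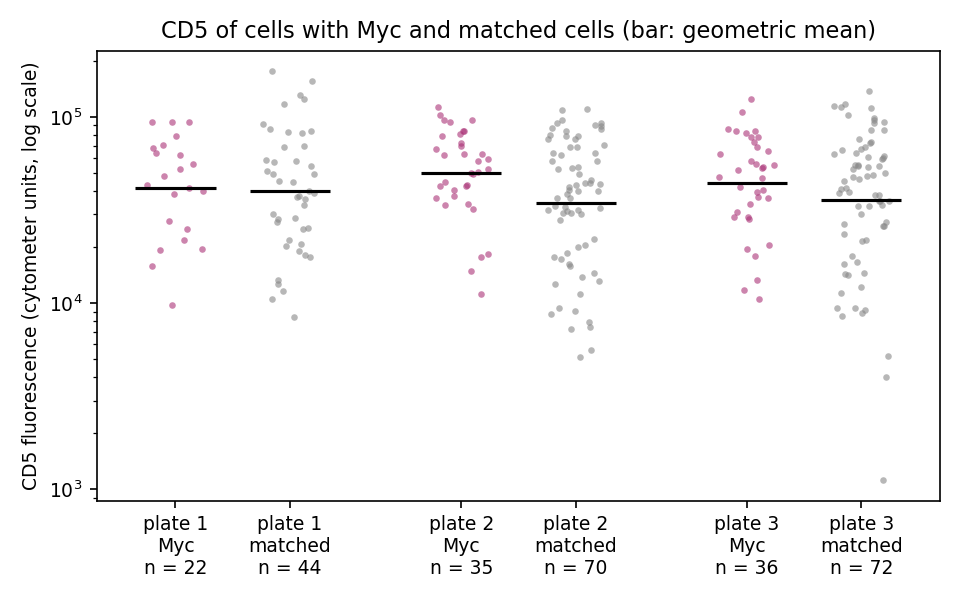
CD5 fluorescence per cell in cytometer units on a log scale (y axis), in cells with Myc and in matched cells of each plate (x axis); bars are geometric means. The bars stand at 41641, 50170 and 43917 units in cells with Myc of plates 1, 2 and 3 and at 40043, 34285 and 35855 in matched cells, with the widest gap in plate 2.

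Plate 2 carried most of the CD5 difference, which was 0.17 without it. In that plate the CD5 values followed the Cd5 transcript less than in the others. Spearman's rho across cells between Cd5 UMIs per total UMIs and CD5 fluorescence was 0.39, 0.08 and 0.26 in plates 1, 2 and 3, given as a description of cells that share a library. As an alternative chosen after results were known, cells of plate 2 were given the fluorescence recorded for the well numbered 1 higher. The difference in plate 2 then became 0.04 and the mean over plates 0.13. Cells whose next well was not among the deposited cells dropped out. That value thus covers fewer cells, without a new matching on depth. The matched cells of plate 2 also had a lower geometric mean, 34285 units, than all cells of that plate at 0, 40877. Against all cells at 0 the mean difference was 0.16, higher in 3 of 3 plates. The part of the well order in plate 2 in this result was not tested further.

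The CD5 values of cells with 1 Myc UMI and of cells with 2 or more did not order the same way in all plates. Medians were 40024 and 68206 units in plate 1 (17 and 5 cells), 49687 and 60144 in plate 2 (21 and 14 cells) and 53456 and 47324 in plate 3 (19 and 17 cells). The 5 cells of plate 1 with 2 or more Myc UMIs all had at least 52488 units. In plate 3 the cells with more Myc had the lower median. Spearman's rho across all cells of a plate between Myc UMIs per total UMIs and CD5 was 0.00, 0.10 and 0.04.

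Counted the other way, Myc was detected in 16 of 174 cells that the authors classed as Low for CD5 (9.20%, 5.35 to 14.5), in 53 of 349 Middle cells (15.2%, 11.6 to 19.4) and in 24 of 174 High cells (13.8%, 9.04 to 19.8). The difference between High and Low was -2.30 percentage points in plate 1, 9.49 in plate 2 and 5.36 in plate 3. Its mean of 4.18 ± 5.98 points (SD, n = 3 plates; exact permutation p = 0.5) was smaller than its spread. High cells were shallower than Low cells, with medians of 3818 against 4554 UMIs. After every cell was thinned at random to 2119 UMIs, which 557 cells reached (83 of the 93 with Myc and 474 of the 604 at 0), shares were 6.0%, 10.2% and 10.6% in Low, Middle and High. The thinned difference was 4.25, 8.17 and 2.12 points, on average 4.84 ± 3.07 (SD, n = 3 plates; exact permutation p = 0.25), positive in 3 of 3 plates. It rests on few cells of a single random draw. In plate 1 these were 2 of 39 Low and 3 of 32 High cells. In plate 2 they were 2 of 41 and 6 of 46, and in plate 3 they were 5 of 70 and 5 of 54.

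Across the transcriptome no gene passed the test between cells with Myc and matched cells. UMIs were summed per plate and group and tested by edgeR's quasi-likelihood test with the plate as a block, and of 3576 genes tested 0 passed a Benjamini-Hochberg adjusted p of 0.05 (percent called 0.0%). At an unadjusted p under 0.05 there were 119 genes (3.33%), 56 higher (1.57%) and 63 lower (1.76%). The DESeq2 Wald test, which gave 12560 genes an adjusted p, also called 0, and 54 genes had an unadjusted p under 0.05 by it. Genes higher in cells with Myc in all 3 plates numbered 420 (11.7%) and genes lower in all 3 numbered 445 (12.4%). The median log2 fold change over all tested genes was 0.00, and 50.1% were positive. On simulated data of this size the test called 7.2% of genes with a 1.5-fold change, 26% with a 2-fold, 56.4% with a 3-fold and 71.2% with a 4-fold change. Among genes with a mean of at least 50 counts, taken after the change, it called 27.0%, 76.1%, 100% and 100% of them. In each of 10 runs 200 of the 3576 genes were changed. The simulated counts lacked the spread per gene that the quasi-likelihood test adds, so these shares may be too high for the real data. Most 2-fold and 3-fold changes in scarcer transcripts, and most 1.5-fold changes in any, were thus not detectable.

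Ribosomal protein genes, the most abundant of the growth genes, took 19.7%, 18.7% and 19.9% of UMIs in cells with Myc of plates 1, 2 and 3, and 18.4%, 20.05% and 18.2% in matched cells. The share was higher in plates 1 and 3 and lower in plate 2. Its mean log2 ratio was 0.04 ± 0.12 (SD, n = 3 plates; exact permutation p = 0.5), and without plate 2 it was 0.11. Of 87 genes in the list 76 were tested and 0 passed. Among the 76, 56 were above 0 and the median log2 fold change was 0.05, beside 0.00 and 50.1% over all tested genes. Higher in all 3 plates were 4 (5.26%) and lower in all 3 were 2 (2.63%), beside 11.7% and 12.4% over all tested genes. The 95% interval of the fold change lay within 2-fold of no change for 73 of the 76. Rps20, a protein of the small subunit, stood at 4846, 4975 and 5281 CPM (counts scaled to a common library size over the tested genes, with TMM factors) in cells with Myc and 4111, 4684 and 4789 in matched cells, higher in 3 of 3 plates without overlap between the groups. Its fitted log2 difference was 0.15 ± 0.10 (SE; edgeR adjusted p = 0.996). Genes named here and below were mostly picked for small p, and how many of all tested genes lack overlap was not counted. Several ribosomal protein genes have near-identical pseudogenes that could share their reads.

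Ribosome biogenesis factors, which process ribosomal RNA and assemble the subunits, took 0.690%, 0.694% and 0.686% of UMIs in cells with Myc and 0.607%, 0.628% and 0.692% in matched cells. The share was higher in plates 1 and 2 and level in plate 3, and a log2 ratio that averaged 0.11 ± 0.10 (SD over 3 plates; exact permutation p = 0.5). Of 49 tested genes, among 101 listed, 36 were above 0 and 13 below, with a median log2 fold change of 0.16. In this list 7 were higher in all 3 plates and 2 lower, or 14.3% and 4.08% against 11.7% and 12.4% over all tested genes, and 0 passed. Ddx18, an RNA helicase of the nucleolus, stood at 156, 138 and 159 CPM in cells with Myc and 85.0, 73.0 and 144 in matched cells. The groups overlapped, and the log2 fold change was 0.62 ± 0.34 (SE), but -0.05 in cells with at least 2 Myc UMIs. Rpf1, needed for the large subunit, went the other way, with 9.18, 64.2 and 31.7 CPM against 93.9, 75.6 and 99.5. Its log2 fold change of -1.28 ± 0.55 rested on 19 UMIs in cells with Myc, and was -0.85 without plate 1 and -2.16 without plate 2. For only 10 of the 49 genes did the interval lie within 2-fold.

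The ribosomal RNA itself, seen as Rn45s, the 45S precursor, passed only in fits on the 36 cells with at least 2 Myc UMIs. This gene was singled out because it passed there. In these cells Rn45s took 1.84%, 4.52% and 2.23% of UMIs in plates 1, 2 and 3, and 3.09%, 6.76% and 2.46% in their 72 matched cells. It was lower in 3 of 3 plates, with a log2 fold change of -0.53 (edgeR adjusted p = 0.0013, n = 3 plates, 4 of 1381 genes, 0.29%, called lower). In plate 1 the median cell went the other way, at 1.98% against 1.81%. Leaving out the cell of highest share in each plate and group gave -0.61 (adjusted p = 0.011). The call was lost without plate 1 (-0.41, adjusted p = 0.92) and without plate 3 (-0.71, adjusted p = 0.50), and it held without plate 2 (-0.47, adjusted p = 1.4e-05). Over all 93 cells Rn45s was at -0.19 ± 0.09 (SE, edgeR adjusted p = 0.996), being higher in plate 1 and lower in the other two. The RNA capture here is by poly(A), so these reads are not a measure of the total ribosomal RNA of the cell.

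**Figure D3:**
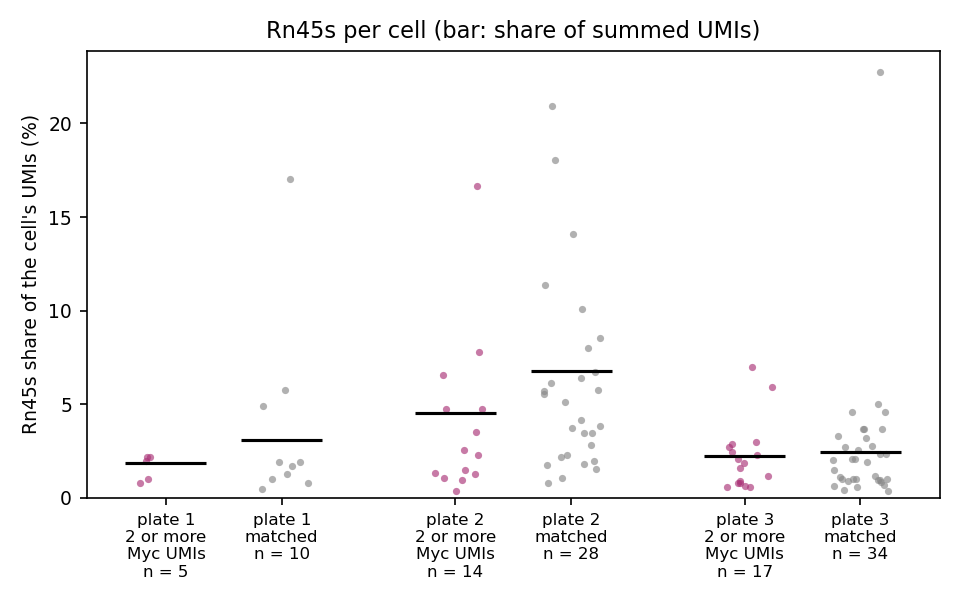
Rn45s as a percentage of each cell's UMIs (y axis) in cells with 2 or more Myc UMIs and in their matched cells by plate (x axis); bars are the share of summed UMIs. Bars are lower in cells with Myc in each plate, at 1.84%, 4.52% and 2.23% against 3.09%, 6.76% and 2.46%, and the cells of both groups overlap.

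The other 3 genes lower in the cells with at least 2 Myc UMIs were Kcnq1ot1, a long non-coding RNA, with Gm17821 and Grk4. Their log2 fold changes were -0.69, -0.82 and -1.02 (edgeR adjusted p = 0.0023, 0.0013 and 0.0023, n = 3 plates). They rested on 1 matched cell of plate 3 that held 1737 Kcnq1ot1 UMIs. Without that cell the values were -0.17, -0.35 and -0.29 (adjusted p = 0.997 for each), and Rn45s was the only gene called (-0.53, adjusted p = 0.00042).

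Translation factors (35 tested) had a median log2 fold change of 0.00, with 17 above 0, and aminoacyl-tRNA synthetases (11 tested), which charge tRNAs, a median of -0.11, with 3 above 0. None of either list passed. Eif4g2, a scaffold of translation initiation, was higher in 3 of 3 plates at 0.26 ± 0.15 (SE), though at -0.03 in cells with at least 2 Myc UMIs, and Eif3d, a subunit of the initiation factor eIF3, was lower in 3 of 3 at -0.64 ± 0.38. The synthetases Sars and Tars had 0.35 ± 0.39 and 0.28 ± 0.56, with mixed signs between plates. Tars turned negative, at -0.04, with 1 matched cell in place of 2.

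Nucleotide and one-carbon genes, from which cells make DNA and RNA precursors, took 0.212%, 0.234% and 0.226% of UMIs in cells with Myc and 0.207%, 0.183% and 0.208% in matched cells. The share was higher in 3 of 3 plates, by 0.17 ± 0.17 on the log2 scale (mean and SD over 3 plates). Of 15 tested genes, 9 were above 0, the median was 0.11 and 0 passed. Ahcy, which breaks down S-adenosylhomocysteine, had 73.4, 64.2 and 50.8 CPM in cells with Myc and 17.9, 27.7 and 25.7 in matched cells. These values do not overlap, but they rest on 29 and 23 UMIs, and the log2 fold change of 1.34 ± 0.64 (SE) had an edgeR adjusted p of 0.996. Nme2, a nucleoside diphosphate kinase, had 376, 464 and 394 CPM against 340, 295 and 311, also without overlap, at 0.40 ± 0.21. Amino acid transport and mTORC1 genes (15 tested) had the highest median of the growth lists, 0.19, with 10 above 0. Rheb, which switches on mTORC1, had 0.76 ± 0.38, and Rps6kb1, the S6 kinase downstream, had 0.73 ± 0.36, each with 1 plate slightly below 0.

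Glycolysis genes were at 0.222%, 0.205% and 0.201% of UMIs in cells with Myc and 0.206%, 0.202% and 0.201% in matched cells, a log2 ratio that averaged 0.04 ± 0.06 (SD over 3 plates; exact permutation p = 0.5). The share turned to -0.02 with the median over cells and to -0.07 in cells with at least 2 Myc UMIs. The gene median and the share differed in sign: of 9 tested genes 3 were above 0 and the median was -0.17. Ldha, lactate dehydrogenase A and a known Myc target, had 624, 583 and 387 CPM in cells with Myc and 461, 481 and 340 in matched cells. It was higher in 3 of 3 plates, but values of the groups overlapped between plates, and the fitted log2 difference was 0.30 ± 0.19 (SE; edgeR adjusted p = 0.996). Gpi1, glucose phosphate isomerase, had -0.43 ± 0.29, with plate 1 above 0 and the others below.

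Mitochondrial genes were close to level. Transcripts of the mitochondrial genome took 16.0%, 13.4% and 14.9% of UMIs in cells with Myc and 16.0%, 12.7% and 14.5% in matched cells, a log2 ratio that averaged 0.04 ± 0.04 (SD over 3 plates; exact permutation p = 0.5). Of 14 tested, 9 were above 0, 0 passed, and all 14 intervals lay within 2-fold. In this list 5 were higher in all 3 plates (35.7%) and 0 lower in all 3 (0.0%), beside 11.7% and 12.4% over all tested genes. mtCo3, a core subunit of cytochrome c oxidase, had 0.19 ± 0.10 (SE), and mtCo2, another, 0.10 ± 0.09. Nuclear genes of the respiratory chain took 0.995%, 1.11% and 1.05% against 1.005%, 1.02% and 0.976%, a log2 ratio that averaged 0.07 ± 0.07 (SD over 3 plates; exact permutation p = 0.5). Among them Cox5a, a subunit of the same oxidase, had 229, 143 and 209 CPM in cells with Myc and 89.5, 116 and 103 in matched cells. These did not overlap, and Cox5a, at 0.86 ± 0.33 (SE), did not pass (edgeR adjusted p = 0.996). Atp5h, of ATP synthase, had -0.45 ± 0.22. Genes of the mitochondrial ribosome and import had a median of 0.07 over 31 tested, with Mrpl30 at 0.74 ± 0.35 and Mrps16 at 1.13 ± 0.61, each higher in 3 of 3 plates. Timm22, a subunit of the inner membrane import machinery, was too scarce for the main test and was singled out after its values were seen. It had 0 UMIs in the 93 cells with Myc and 56 UMIs in 17 of the 186 matched cells, 9, 41 and 6 in plates 1, 2 and 3. Without the filter on low counts it was the 1 gene of 12560 (0.00796%) to pass (edgeR adjusted p = 0.0143).

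**Figure D4:**
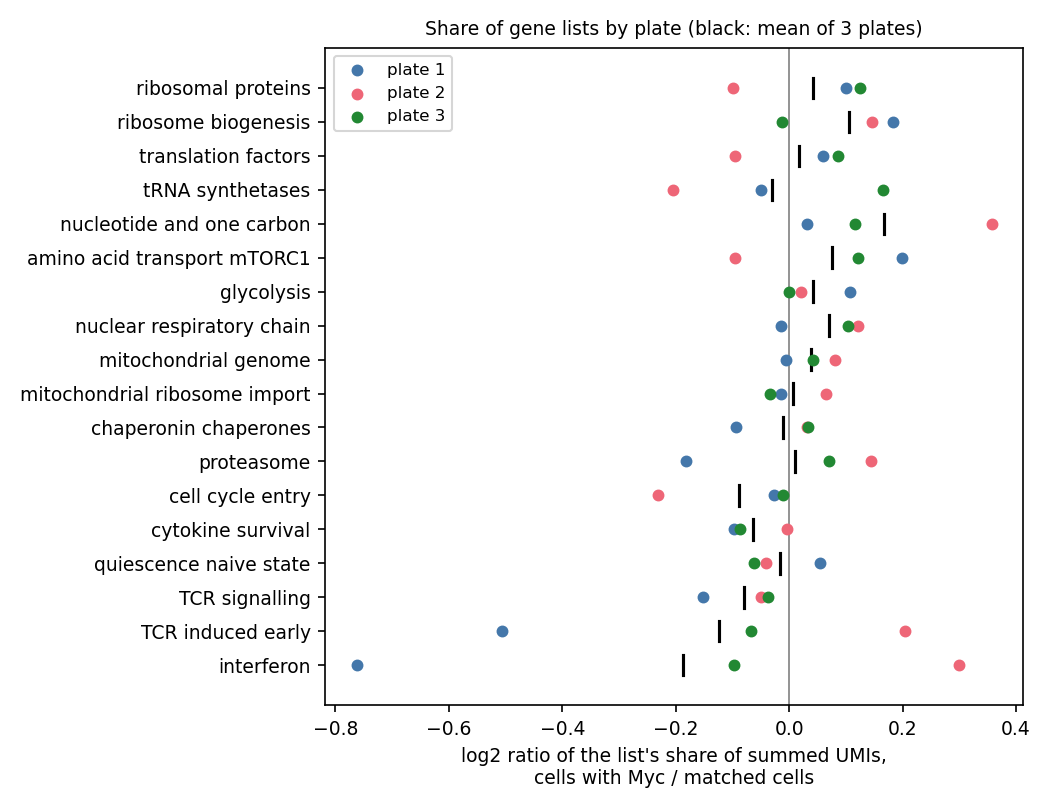
Log2 ratio of each gene list's share of summed UMIs in cells with Myc over that in matched cells (x axis) by list (y axis); points are plates and black bars their mean. The ribosomal protein points lie at 0.10, -0.10 and 0.13 in plates 1, 2 and 3, on both sides of 0 as for most lists, and of the lists drawn the interferon points are the widest apart, from -0.76 to 0.30.

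**Figure D5:**
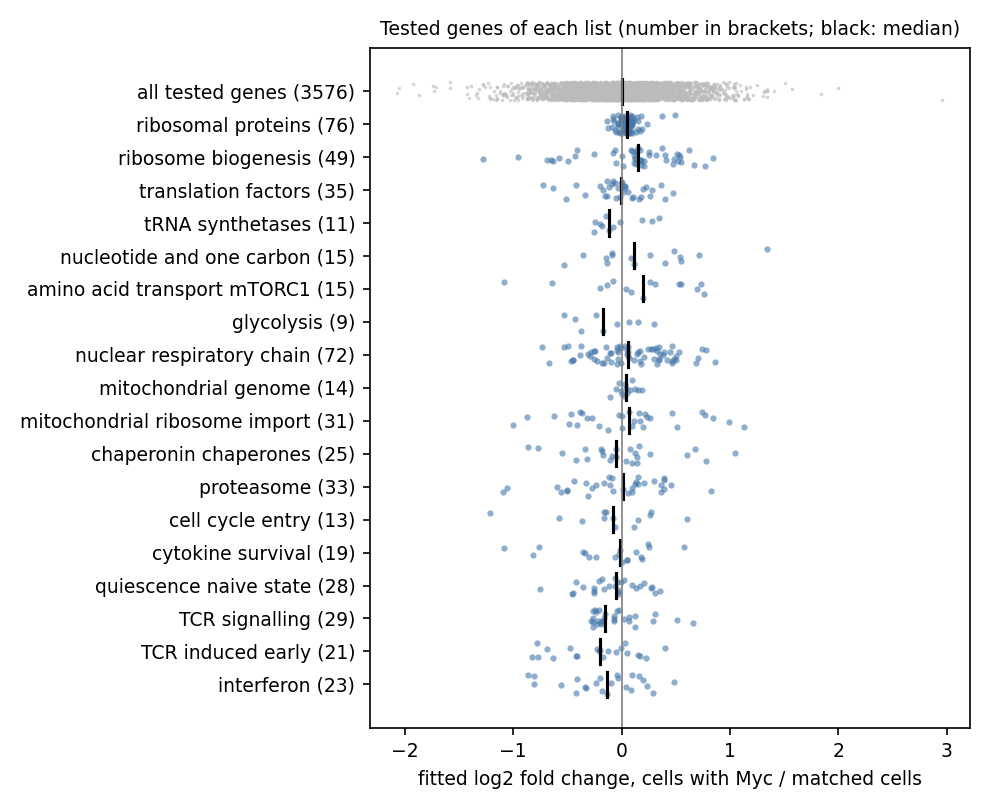
Fitted log2 fold change, cells with Myc over matched cells (x axis), of each tested gene by list (y axis), with the median in black and the number of tested genes in brackets. Medians of the lists drawn lie between -0.20 for genes induced early by the TCR and 0.19 for amino acid transport and mTORC1, and points spread less in abundant lists such as the ribosomal proteins.

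The Myc network itself showed no difference that passed. Of 24 listed genes, 19 other than Myc were in the table and 9 were tested. Max had 156, 193 and 190 CPM in cells with Myc and 192, 136 and 244 in matched cells, with a log2 fold change of -0.03 ± 0.30 (SE) and plates that went both ways, as they did for all of this network but Mga and Pim2. Mga, which pairs with Max and opposes Myc, was higher in 3 of 3 plates at 0.48 ± 0.37, and Mlx, at the head of a parallel network, had 0.16 ± 0.44. Its partner Mlxip had -0.25 ± 0.51. The kinase Pim2 was lower in 3 of 3 plates, at 36.7, 14.8 and 25.4 CPM against 62.6, 60.4 and 73.8, without overlap, with -1.43 ± 0.62. These Pim2 values rest on 11 UMIs in 6 cells with Myc and 61 UMIs in 26 matched cells. The related Pim1 had 0.00 ± 0.30. The cofactors Trrap and Bptf had 0.30 ± 0.43 and -0.10 ± 0.24, and Usp28, a deubiquitinase that stabilises Myc, had -0.46 ± 0.54. The edgeR adjusted p was 0.999 for Pim1 and 0.996 for each of the others.

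Members of the network too scarce to test were compared by the share of cells with a UMI, which in these data covers few molecules. Zbtb17, the zinc-finger protein through which Myc represses genes, was found in 15 of 93 cells with Myc (16.1%, exact binomial interval 9.32 to 25.2). It was found in 13 of 186 matched cells (6.99%, 3.77 to 11.7). These intervals overlap and cover counting error only. By plate the shares were 9.09%, 20% and 16.7% against 2.27%, 10% and 6.94%, higher in 3 of 3 plates. Of the scarce members given here Zbtb17 differed most. The Myc antagonists Mxd1, Mxi1 and Mnt were found in 7 cells with Myc each (7.53%), and in 6.45%, 7.53% and 9.68% of matched cells. Fbxw7, which marks Myc for destruction, was found in 9.68% and 9.14%. Mxd4 was found in 0.0% and 2.15%. Ruvbl1, Ruvbl2 and Wdr5 were found in 10.8%, 15.1% and 14.0% of cells with Myc and in 10.2%, 14.5% and 12.4% of matched cells. Pvt1, the non-coding neighbour of Myc, was found in 5.38% of cells with Myc and 9.14% of matched cells, so cells with Myc did not have it more often.

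Genes that TCR signals induce within hours, as they do Myc, had a median log2 fold change of -0.20 over 21 tested, with 6 above 0. In this list 0 were higher in all 3 plates (0.0%) and 5 lower in all 3 (23.8%), beside 11.7% and 12.4% over all tested genes, and 0 passed. Nfkbia, the inhibitor of NF-kB, had 73.4, 311 and 209 CPM in cells with Myc and 322, 315 and 414 in matched cells. It was lower in 3 of 3 plates, at -0.83 ± 0.30 (SE; edgeR adjusted p = 0.996), with plates 1 and 3 far apart and plate 2 level. The groups were only just without overlap, by the 311 and 315 CPM of plate 2. Tnfaip3, another brake on NF-kB, had -0.77 ± 0.37 with mixed signs. The share of summed UMIs for this list was lower by 0.51 on the log2 scale in plate 1, higher by 0.20 in plate 2 and near level in plate 3. Nr4a1, a reporter of TCR signals, had a UMI in 19.4% of cells with Myc and 13.4% of matched cells, higher in 3 of 3 plates (18.2%, 20% and 19.4% against 15.9%, 14.3% and 11.1%), while Egr1 had 6.45% and 7.53%. Cd69 had 37.6% and 31.7%, with plate 1 the other way.

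Components of the TCR pathway had a median of -0.16 over 29 tested, with 9 above 0, 2 higher in all 3 plates (6.90%) and 7 lower in all 3 (24.1%), beside 11.7% and 12.4% over all tested genes, and 0 passed. Dgka, a kinase that removes diacylglycerol and so dampens TCR signals, had 2689, 2406 and 2266 CPM in cells with Myc and 3096, 3198 and 2552 in matched cells, at -0.26 ± 0.12 (SE). Cd3d, a chain of the TCR complex, had -0.23 ± 0.19, lower in 3 of 3. Cd2, an adhesion receptor, had 477, 603 and 514 CPM against 403, 418 and 308, without overlap, at 0.51 ± 0.20. Cd5 itself had 413, 237 and 139.6 CPM in cells with Myc of plates 1, 2 and 3, and 237, 277 and 183 in matched cells. It was higher in plate 1 only, and the log2 fold change of 0.07 ± 0.28 turned negative without plate 1, at -0.31. In plates 2 and 3 the Cd5 transcript was lower and CD5 fluorescence higher in cells with Myc.

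Cytokine and survival genes (19 tested) had a median of -0.02. Stat3, which carries cytokine signals, was lower in 3 of 3 plates, at 82.6, 133 and 152 CPM in cells with Myc against 264, 287 and 241 in matched cells, with no overlap and a fitted log2 difference of -1.09 ± 0.30 (SE; edgeR adjusted p = 0.996). Bcl2, which protects against cell death, was higher in 3 of 3, at 0.57 ± 0.20. Il7r, the receptor of the survival cytokine IL-7, had -0.36 ± 0.21 with mixed signs. Genes of quiescence and the naive state (28 tested, 9 above 0) had a median of -0.05, with Tsc22d3, a glucocorticoid-induced gene, at -0.75 ± 0.35 and Igfbp4, a marker of naive cells, at 0.31 ± 0.15. Interferon-induced genes (23 tested, 8 above 0) had a median of -0.13, with Ly6a at -0.80 ± 0.29 and Ifit1 at -0.81 ± 0.39. Of the 124 Ifit1 UMIs in matched cells, 36 came from 1 cell. Ifit1 was found in 22.6% of cells with Myc and in 19.9% of matched cells. In cells with at least 2 Myc UMIs Ly6a was at 0.42. The summed share of the interferon-induced genes was 0.347%, 0.467% and 0.395% in cells with Myc and 0.588%, 0.379% and 0.423% in matched cells, lower in plate 1 and higher in plate 2.

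No tested gene of cell division passed at this depth. Cell cycle genes (13 tested, 5 above 0) had a median of -0.08, with 0 higher in all 3 plates (0.0%) and 3 lower (23.1%), beside 11.7% and 12.4% over all tested genes. Mcm7, of the replicative helicase, had -1.21 ± 0.54 (SE), and Ran, a nuclear transport GTPase, -0.58 ± 0.30. Any of Mki67, Top2a, Birc5, Ccnb1 and Ube2c was found in 18.3% of cells with Myc (exact binomial interval 11.02 to 27.65) and 18.8% of matched cells. Singly, Mki67 was found in 2.15% and 3.76%, Birc5 in 1.08% and 1.61%, and Ube2c in 9.68% and 13.4%. Top2a went the other way, with 5.38% and 2.15%. Mcm2 was found in 15.1% and 6.45%, higher in plates 1 and 2 and lower in plate 3. Mcm4 and Mcm6 were also found more often in cells with Myc, and Mcm3, Mcm5 and Mcm7 less often. Chaperone genes (25 tested) had a median of -0.05 and proteasome genes (33 tested) one of 0.02. Cct7, Hspa1b, Psma5 and Psmd2 had -0.78 ± 0.41, 1.05 ± 0.60, -1.10 ± 0.51 and -1.06 ± 0.66. Hspa1b, a heat-shock protein, had 9 UMIs in cells with Myc and 0 in matched cells of plate 1, so its fitted value depends on how the 0 is treated. In plates 2 and 3 it had 4.94 and 298 CPM against 5.04 and 234. Lgals1, a gene of memory and activated T cells, had -1.22 ± 0.52, and Icos, a costimulatory receptor, 0.63 ± 0.50.

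The genes of smallest p over the whole table, among those with the same sign in all 3 plates, did not pass either (edgeR adjusted p = 0.996 for each). The 6 higher in cells with Myc were Slc25a1, Ptpn11, Ubl4, Dock10, Wipf2 and Acap2, with log2 fold changes of 2.96, 2.0, 1.84, 0.86, 0.95 and 1.25. Slc25a1, which exports citrate from mitochondria for lipid synthesis, had 55.1, 74.1 and 57.1 CPM in cells with Myc and 8.95, 5.04 and 9.63 in matched cells. It rested on 30 UMIs in 8 of the 93 cells against 7 UMIs in 5 of the 186. Ptpn11, the phosphatase Shp2, had 101, 64.2 and 171 CPM against 31.3, 27.7 and 19.3, from 51 and 24 UMIs, and was found in 23.7% of cells with Myc and 8.06% of matched cells. The 6 lower were Stat3, Traf7, Gpr171, Mfng, Prdx5 and Tgs1, with -1.09, -1.22, -1.74, -1.73, -2.07 and -1.17. Mfng, a glycosyltransferase that modifies Notch, was found in 8 of 93 cells with Myc (8.60%) and in 57 of 186 matched cells (30.6%), at 18.4, 24.7 and 31.7 CPM against 89.5, 70.5 and 99.5.

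The E-box CACGTG was looked for on both strands of the RefSeq windows (GRCm38.p6) from 250 bases before to 50 after each gene start; the motif reads the same on either strand, so each match counts once. It was in 7.15% of all 32851 windows and in 348 of the 2746 tested genes that have a window (12.7%). Of those 348, 164 were above 0 in cells with Myc (47.1%), with a median log2 fold change of -0.01 and 0 passed. Of the 2398 without it, 50.8% were above 0, with a median of 0.00. The match is a description of letters and not of binding by Myc. Stretches around the motif, in capitals, are shown for 4 tested genes of nucleotide synthesis and ribosome biogenesis, to set the sequence beside genes of the kind Myc is known for. They lie before the RefSeq start. By GENCODE M21, however, the stretches of Nme1 and Impdh2 fall inside the gene (chr11:93956979-93968521 and chr9:108560286-108565584). Paics (chr5:76951059-76951144, + strand), Nme1 (chr11:93968273-93968330, - strand), Impdh2 (chr9:108560286-108560371, + strand) and Nol11 (chr11:107189382-107189464, - strand) read 5′ to 3′ in the direction of the gene:
Paics: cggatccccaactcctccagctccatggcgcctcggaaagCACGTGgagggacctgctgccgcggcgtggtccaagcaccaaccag
Nme1: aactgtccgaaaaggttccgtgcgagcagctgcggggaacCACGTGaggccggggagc
Impdh2: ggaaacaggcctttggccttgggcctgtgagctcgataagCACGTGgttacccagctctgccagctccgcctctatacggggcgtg
Nol11: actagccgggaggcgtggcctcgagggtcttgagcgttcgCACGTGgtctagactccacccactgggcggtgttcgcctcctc

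With the same E-box, these 4 genes did not go one way. Paics, a purine synthesis enzyme, had a log2 fold change of -0.15 ± 0.27 (SE) between cells with Myc and matched cells, and Nme1, a nucleoside diphosphate kinase, had -0.14 ± 0.37. Impdh2, which makes guanine nucleotides, had 0.54 ± 0.49, with plate 1 below 0. Nol11, needed to process ribosomal RNA, had -0.96 ± 0.57, lower in 3 of 3 plates, from 16 UMIs in cells with Myc and 63 in matched cells. None passed (edgeR adjusted p = 0.996 for each).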

How the data were processed

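Per the labels, single sorted cells were profiled by SORT-seq with CEL-Seq2 primers and 6-base UMIs, and per the submitters' processing notes BWA and the build mm10 were used. The BWA version and the rule by which cells and genes were kept are not stated there. Gene values as deposited are expected counts, that is, UMIs the authors corrected for collisions: 99.68% of values above 0 lay within 0.01 of a collision-corrected whole UMI number. They hold 14355 genes in 697 cells, with spike-ins at 19.6% of counts. CD5, as deposited, is a fluorescence signal with no scaling between plates stated, and the authors' CD5 classes are words. Sorting was by single cells and no doublet caller was run.

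Here each cell with Myc was matched within its plate to 2 cells at 0 by optimal assignment on the log2 ratio of total UMIs, with Myc and spike-ins left out. Sums per plate and group, 6 in all, were rounded to whole numbers and fitted with edgeR 4.0.16 (TMM, filterByExpr, plate block, 17.8 prior and 2 residual degrees of freedom, so a small p need not mean that the plates concur) in R 4.3.3 (limma 3.58.1), two-sided, and tested on simulated data. Both sums of a plate share library and sequencing, so the numbers pair the samples: deviations from the group means over 619 abundant genes correlated at 0.235, 0.466 and 0.317 in plates 1, 2 and 3. Other values were compared by exact sign-flip tests over plates. Python 3.11.15 with numpy 2.4.6, pandas 2.3.3, scipy 1.17.1 and matplotlib 3.10.9 did the rest. Alternatives were DESeq2 1.42.0 (size factors, Wald test), other filters, no block, each plate left out, other matching, thinning, and cells with at least 2 Myc UMIs. The members, gene lists, rules and tests were chosen with earlier results of these data known. Named genes are Cd5, the 6 of smallest p per direction with the same sign in 3 plates, 2 of smallest p per list, the Myc network, 4 genes whose promoters are shown, and genes named as singled out. Of these, 1 gene is not reported here. Izumo1r stands under its older symbol Folr4. Gene positions come from GENCODE M21, and promoters from RefSeq. The deposited list of primers was left out.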

Additional observations from a re-analysis of the deposited data

How the results depend on the processing

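The plates may not be separate mice, there were 3 replicates, and 57 of 93 cells were detected by 1 Myc UMI. Most changes of 3-fold or less in scarce genes were not detectable. A CD5 shift of any size could not pass, since the exact permutation test over 3 plates cannot go below p = 0.25. The CD5 difference was above 0 under all 10 alternatives (0.13 to 0.48), as were the ribosomal protein (0.0011 to 0.13), ribosome biogenesis (0.066 to 0.18), respiratory chain (0.038 to 0.15) and mitochondrial genome (0.0055 to 0.062) log2 ratios. These alternatives are not independent: 1 matched cell with and without a limit on the depth ratio gave the same values. CD5 was above 0 in each plate, so leaving out 1 plate could not change its sign. With 3 matched cells the CD5 difference was 0.21 and above 0 in 2 of 3 plates. Leaving out 1 plate gave 0.17 to 0.42 for CD5, -8.03 to 30.9 for genes detected per cell and -0.047 to 0.019 for UMIs per spike-in UMI, which was 0.24 without matching. The glycolysis ratio was -0.020 with the median over cells and -0.067 in cells with at least 2 Myc UMIs. No gene was called without the plate (replicate) block (0 genes, 86 at an unadjusted p under 0.05), without any 1 plate (0 to 0) or with other matching. Without the filter 1 gene was called, in cells with at least 2 Myc UMIs 4, also without the cells of highest Rn45s share (4), and without the top Kcnq1ot1 cell 1; leaving out 1 plate there gave 0 to 6. Rn45s ranged there from -0.41 to -0.71. The cause of these changes was not tested.

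Some named genes changed sign; none of them passed. With 1 matched cell, with or without a limit on the depth ratio, Cd5 was -0.051 and Tars -0.039. With 3, Bptf was 0.022, Cd5 -0.072, Folr4 0.026 and Pim1 0.15. With DESeq2 size factors Pim1 was 0.0030. Without matching, Bptf was 0.071, Cd5 -0.10, Folr4 0.16, Nme1 0.093 and Pim1 0.23. With CD5 in the matching, Bptf was 0.094, Cd5 -0.14, Nme1 0.11 and Pim1 0.26. With totals free of chromosome M, Rn45s and Kcnq1ot1, Bptf was 0.063, Cd5 -0.092, Folr4 0.026, Max 0.066 and Pim1 0.14. Thinned, Bptf was 0.22, Cd3d 0.032, Cd5 -0.21, Folr4 0.025, Max 0.24 and Paics 0.013. Without Foxp3 cells, Cd5 was -0.13 and Pim1 0.18. In cells with at least 2 Myc UMIs, Ctss was -0.13, Ddx18 -0.053, Eif4g2 -0.025, Ly6a 0.42 and Max 0.077. Without the top Kcnq1ot1 cell these were -0.17, -0.012, -0.016, 0.47 and 0.053. Without the cells of highest Rn45s share, Cd5 was -0.0039, Ctss -0.14, Eif4g2 -0.13, Ldha -0.0072, Ly6a 0.48 and Max 0.28. Leaving out 1 plate moved Bptf from -0.20 to 0.029, Cd5 from -0.31 to 0.25, Folr4 from -0.87 to 0.21, Max from -0.33 to 0.14, Mlx from -0.38 to 0.53, Nme1 from -0.46 to 0.11, Paics from -0.40 to 0.042, Pim1 from -0.41 to 0.32, Tars from -0.24 to 0.94, Trrap from -0.016 to 0.68 and Usp28 from -1.03 to 0.21.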
